A study of Mus musculus with 8 samples.

Results

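The haemoglobin and erythroid maturation genes examined here were 9 genes of the red cell lineage, found in the deposited table of mouse knee joints by their gene names. They were the alpha globin genes Hba-a1 and Hba-a2, the beta globin genes Hbb-bs and Hbb-bt, the haem synthesis gene Alas2, the membrane genes Slc4a1 and Epb42, and the transcription factor genes Klf1 and Gata1. All 9 names were found among the 20681 rows of the table. Messenger RNA of knee joints had been captured on poly-T beads and sequenced in 8 libraries. Control is the label of 4 of them and knockout that of the other 4, the gene in question being Loxl2, which encodes a collagen-crosslinking enzyme. The series' design text gives Acan-Cre;Loxl2 fl/fl mice as the source of all 8 samples, in which loxP-flanked Loxl2 can be deleted in cells that make Cre from Acan, the aggrecan gene expressed by chondrocytes. The library names are of the form Vehicle_DMM_LOXL2wt for the controls and KO_DMM_LOXL2ko for the others. The labels leave DMM unexplained. In knee studies it is short for surgical destabilisation of the meniscus, an injury model. Since the control names read wt, whether the controls carried both Cre and the floxed alleles is not settled by these sources. Vehicle treatment is stated for the controls only, so treatment and genotype label cannot be told apart. Age, sex and the time after injury are not given in the sources used here, and nothing in them says whether the libraries of a group came from separate animals, so p-values measure the spread between these libraries.

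Red cells form in the marrow of the bones that meet at the knee. Committed precursors switch on GATA1 and KLF1, which act on the genes for globin, for haem synthesis and for the red cell membrane. The precursors then divide a few times, fill with haemoglobin, expel their nucleus and leave as reticulocytes, which keep globin messenger RNA for a while in the blood. A joint sample can therefore hold these transcripts in marrow and in blood within vessels. In bulk samples of this kind, fewer red cell precursors and less RNA per precursor cannot be told apart.

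Values are normalised read counts, that is, reads per gene divided by a size factor of the library. The libraries held 13991000 to 17411617 reads assigned to genes. Differences are given on the scale of log2(value + 1) as libraries labelled knockout minus controls. They come from a limma fit over 14949 genes, those that reached 10 normalised reads in 4 or more libraries, and a gene is called at a Benjamini-Hochberg adjusted p under 0.05. Loxl2 itself was not lower in the group labelled knockout, with 519 ± 411 in the controls and 1210 ± 329 in that group (SD, n = 4 each). The log2 difference was 1.44 (adjusted p = 0.0294 by limma, p = 0.0857 by exact permutation), and control replicate 3 at 1135 stood with the group labelled knockout. Values of whole joints cannot show a deletion limited to cells that express Acan, so Loxl2 could not serve to check the labels. The groups are therefore called by their labels throughout. Within groups no pair of libraries matched within counting error (chi-square per degree of freedom 19.3 to 49.8 over 12 pairs).

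All 9 genes had a lower mean in the libraries labelled knockout, at 28.7% (Hba-a2) to 48.5% (Klf1) of the control mean, and none passed the test. Their log2 differences lay between -2.31 and -1.51 with a median of -1.95, against a median of 0.00 over all tested genes, of which 49.9% were below 0 and 1.26% below -1. The count called lower was 0 of 9, where 11.6% of all tested genes were called lower and 23.2% were called in either direction. At an unadjusted p under 0.05, 8 of the 9 were lower, against 19.2% of all tested genes. Groups overlapped in all 9, while 13.4% of tested genes had groups that did not overlap with the libraries labelled knockout lower. Their standard errors were 0.64 to 0.95, against a median of 0.17 over all tested genes. Without knockout replicate 3, 8 of the 9 were called lower, where 13.4% of all tested genes were, and without control replicate 3, 3 of the 9 were (Hbb-bs, Epb42 and Gata1), where 11.2% were. For all 9 genes, these were the highest library labelled knockout and the lowest control, so leaving either out widened the difference by construction. With any other single library left out, 0 of the 9 were called lower, where 913 to 1408 of the 14949 tested genes were.

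**Figure D1:**
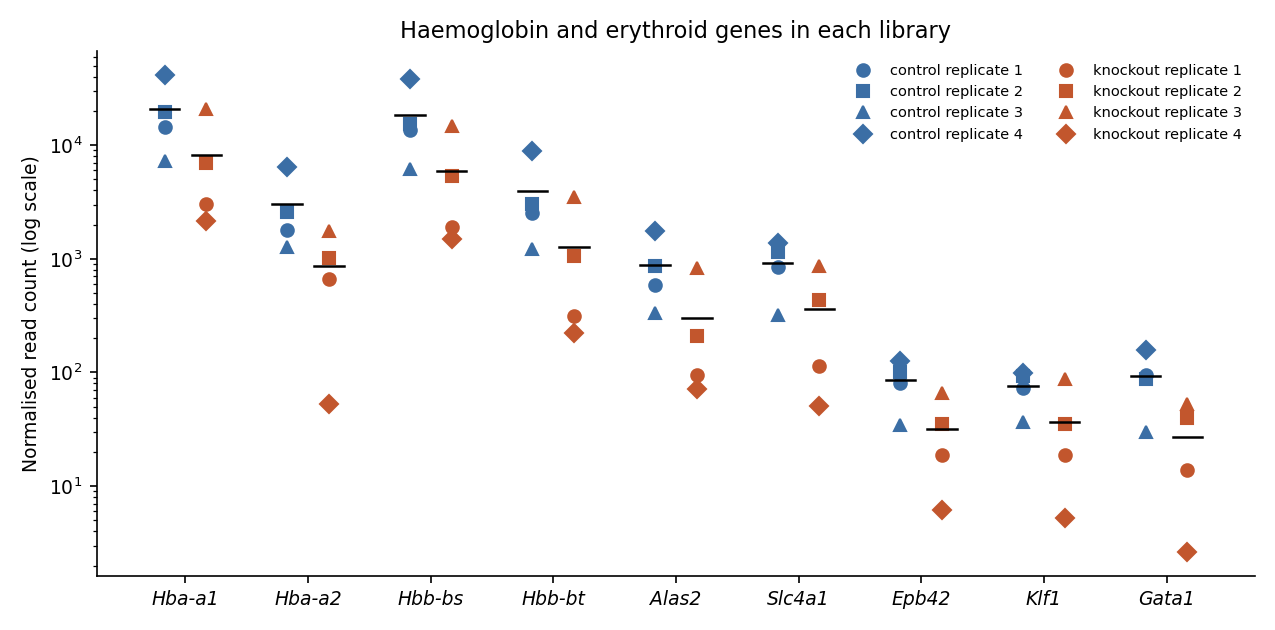
Normalised read counts of the 9 genes on a log axis, with control libraries in blue, libraries labelled knockout in orange, symbols for the replicate number and black bars for group means (n = 4). Control replicate 4 is the highest and knockout replicate 4 the lowest library for each gene, and knockout replicate 3 lies among the controls.

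The libraries kept nearly the same order in each of the 9 genes. Control replicate 4 was the highest and knockout replicate 4 the lowest of the 8 libraries for all 9. The libraries labelled knockout ran in the order of replicates 3, 2, 1 and 4 for all 9 genes, and the controls in the order 4, 2, 1 and 3 for 8 genes, with replicates 1 and 2 exchanged for Gata1. The highest library exceeded the lowest by 18.9-fold for Klf1 and by 123-fold for Hba-a2. After subtracting the group means, Pearson correlations between pairs of the 9 genes over the 8 libraries ranged from 0.807 to 0.998 with a median of 0.931, given as a description of genes that share the same libraries and scaling.

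Alpha globin is encoded on chromosome 11 by a pair of near-identical copies, Hba-a1 (mm10, 32283511 to 32284465, plus strand) and Hba-a2 (32296489 to 32297298, plus strand). Their coding sequences of 429 bases differ at 1 position, so that reads from most of their length match both copies and the authors' rule for such reads is not given in the sources used here. The stretch from coding base 351 to 411 is shown with the differing base, 381, in capitals, from the GENCODE transcripts.
Hba-a1: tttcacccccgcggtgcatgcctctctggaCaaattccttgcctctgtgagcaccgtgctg
Hba-a2: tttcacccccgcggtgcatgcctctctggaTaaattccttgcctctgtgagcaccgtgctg
The annotated transcripts also differ in length before the coding part, with 196 bases in Hba-a1 and 35 in Hba-a2, because Hba-a1 is annotated from a start further upstream. Counts of the separate copies are therefore uncertain. Hba-a1 stood at 14371, 19634, 7320 and 41787 normalised reads in the controls, in the order of replicates 1 to 4, and at 3027, 6934, 20664 and 2134 in the libraries labelled knockout. Knockout replicate 3 exceeded 3 of the 4 controls, while the other 3 libraries labelled knockout lay below every control. The means were 20778 ± 14887 and 8189 ± 8573 (SD, n = 4), giving a difference of -1.64 ± 0.70 (SE) on the log2 scale, with 95% limits of -3.198 and -0.07 (adjusted p = 0.116 by limma, p = 0.143 by exact permutation). Hba-a2 stood at 1798, 2566, 1268 and 6475 in the controls and at 663, 1018, 1741 and 52.8 in the libraries labelled knockout. Its knockout replicate 4, with 60 reads, was far below all others, and knockout replicate 3 exceeded only control replicate 3. The log2 difference of Hba-a2 was -2.31 ± 0.95 (SE) (95% interval -4.43 to -0.18, adjusted p = 0.104 by limma, p = 0.0571 by exact permutation), the fifth most negative difference of all 14949 tested genes.

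Beta globin is encoded on chromosome 7 by Hbb-bs (103826534 to 103828096, minus strand) and Hbb-bt (103812524 to 103813996, minus strand), the adult beta genes of this genome build. Their coding sequences of 444 bases also differ at 1 position, base 417, in capitals below in the stretch from coding base 387 to 444, so the same doubt about shared reads holds.
Hbb-bs: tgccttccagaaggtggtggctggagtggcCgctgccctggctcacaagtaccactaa
Hbb-bt: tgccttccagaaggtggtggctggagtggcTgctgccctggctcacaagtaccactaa
Hbb-bs stood at 13635, 15235, 6208 and 38342 in the controls, in the order of replicates 1 to 4, and at 1887, 5371, 14822 and 1493 in the libraries labelled knockout. As with alpha globin, control replicate 3 was the lowest control, and knockout replicate 3 lay within the controls while the other 3 lay below them all. The log2 difference was -1.95 ± 0.73 (SE) (95% interval -3.57 to -0.32, adjusted p = 0.0786 by limma, p = 0.0857 by exact permutation). Without knockout replicate 3, the highest of its group, it was -2.59 (limma adjusted p = 0.0167), and without knockout replicate 4, the lowest, -1.49 (limma adjusted p = 0.200). Hbb-bt stood at 2516, 3061, 1224 and 8898 in the controls and at 314, 1057, 3469 and 221 in the libraries labelled knockout, so that knockout replicate 3 exceeded all controls but replicate 4. Its log2 difference was -2.09 ± 0.84 (SE) (95% interval -3.96 to -0.21, adjusted p = 0.0972 by limma, p = 0.143 by exact permutation). Per kilobase of exon, the control means were 25589 for Hba-a1, 23900 for Hbb-bs, 5583 for Hbb-bt and 4538 for Hba-a2. The exon length was 812 bases for Hba-a1, with its start annotated further upstream, and 667 for Hba-a2. The 4 globin genes together took 0.275 ± 0.203% of the normalised reads of the control libraries and 0.111 ± 0.109% of those labelled knockout (SD, n = 4, exact permutation p = 0.229).

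Alas2 (chromosome X, 150547375 to 150570638, plus strand) encodes the erythroid form of the enzyme that begins haem synthesis. It overlaps Apex2 on the opposite strand, and the use of strand in counting is not stated, so reads of the 2 genes were not necessarily kept apart. Alas2 stood at 591, 869, 331 and 1768 in the controls, in the order of replicates 1 to 4, and at 94.7, 210, 834 and 71.3 in the libraries labelled knockout, again with replicate 3 as the low control and as the high library labelled knockout. The means were 890 ± 625 and 303 ± 359 (SD, n = 4), and the log2 difference was -1.99 ± 0.73 (SE) (95% interval -3.63 to -0.35). It was not called (adjusted p = 0.0758 by limma, p = 0.0857 by exact permutation) but had the smallest adjusted p of the 9 genes, both with all libraries and without knockout replicate 3 (log2 difference -2.71, limma adjusted p = 0.0107). Without knockout replicate 4, its lowest library, the log2 difference was -1.53 (limma adjusted p = 0.193).

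The membrane genes showed the same order of libraries, Slc4a1 at counts like those of Alas2 and Epb42 at far lower ones. Slc4a1 (chromosome 11, 102348824 to 102366203, minus strand), which encodes the anion exchanger band 3, stood at 845, 1160, 321 and 1382 in control replicates 1 to 4. The knockout replicates stood, in the same order, at 114, 430, 857 and 51.1, and both knockout replicates 2 and 3 exceeded control replicate 3. The log2 difference of Slc4a1 was -1.91 ± 0.80 (SE) (adjusted p = 0.110 by limma, p = 0.143 by exact permutation). Epb42 (chromosome 2, 121017891 to 121037072, minus strand), which encodes protein 4.2, a partner of band 3 on the inner face of the membrane, stood at 80.04, 102, 34.6 and 125 in the controls and at 18.9, 35.1, 66.3 and 6.16 in the libraries labelled knockout, the last of these from 7 reads. Its log2 difference was -1.69 ± 0.64 (SE) (adjusted p = 0.0830 by limma, p = 0.0857 by exact permutation), and knockout replicates 2 and 3 again lay above control replicate 3.

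The transcription factor genes had counts in the range of Epb42. Klf1 (chromosome 8, 84901928 to 84905291, plus strand), which activates the adult beta globin genes, stood at 72.5, 92.9, 36.5 and 99.7 in the controls, in the order of replicates 1 to 4, and at 18.9, 35.1, 87.0 and 5.28 in the libraries labelled knockout. Its log2 difference of -1.51 ± 0.69 (SE) was the smallest of the 9, and its 95% interval alone reached 0 (-3.05 to 0.04, adjusted p = 0.139 by limma, p = 0.114 by exact permutation). Gata1 (chromosome X, 7959260 to 7978071, minus strand), which is also used by megakaryocytes, mast cells and eosinophils, stood at 95.2, 87.8, 29.9 and 159 in the controls. In the libraries labelled knockout it stood at 14.0, 39.3, 53.3 and 2.64, of which the last rests on 3 reads (95% Poisson interval 0.619 to 8.77 reads, counting error only). Its log2 difference was -2.12 ± 0.81 (SE) (95% interval -3.92 to -0.32, adjusted p = 0.0831 by limma, p = 0.0857 by exact permutation).

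**Figure D2:**
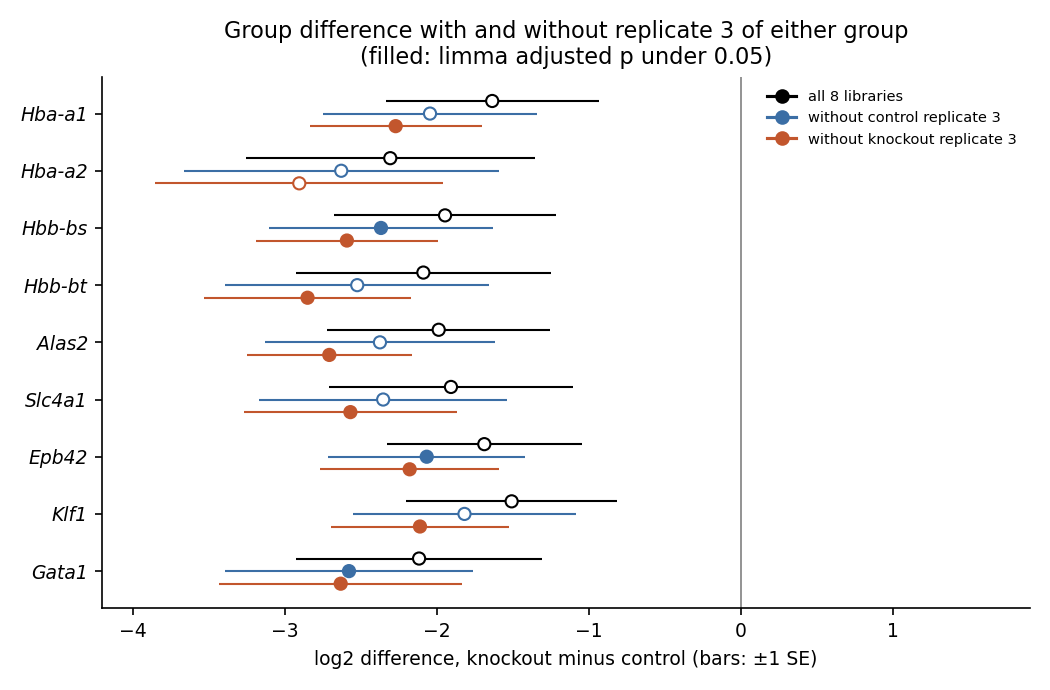
Log2 differences of the 9 genes (points, with bars of 1 standard error) from the limma fit with all 8 libraries in black, without control replicate 3 in blue and without knockout replicate 3 in orange, filled where the adjusted p was under 0.05. All 9 points are open with all libraries, 3 are filled without control replicate 3 and 8 without knockout replicate 3, Hba-a2 being the exception. The libraries left out were the lowest control and the highest library labelled knockout for all 9 genes. With any other single library left out, none of the 9 was called lower, where 913 to 1408 of the 14949 tested genes were.

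The sequence before the start sites of the 9 genes was examined for the letters that GATA1 and KLF1 are known to bind. RefSeq promoters on GRCm38.p6 were matched by symbol for 8 of the 9 genes (all but Slc4a1), and the 250 bases before the start were searched on both strands for AGATAA or TGATAA and for CACCC, the core of CCACACCC. AGATAA or TGATAA was found in 6 of the 8, against 16.6% of 32851 promoters of the same length, CACCC in 7 of the 8, against 52.0%, and both in 5 of the 8, against 7.11%. The Hba-a1 and Hba-a2 windows are the same sequence shifted by 3 bases (247 of 247 overlapping bases identical). With that sequence taken once, the counts were 5, 6 and 4 of 7 windows. The promoters of 4 genes that hold both are shown with the matches in capitals, with alpha and beta globin, haem synthesis and a transcription factor among them. The Hbb-bs window alone of the 8 holds CCACACCC (3.2% of all promoters). Hba-a2 is on the plus strand at chr11:32296242-32296491, Hbb-bs on the minus strand at chr7:103827929-103828178, Alas2 on the plus strand at chrX:150547167-150547416 and Klf1 on the plus strand at chr8:84901732-84901981.
Hba-a2: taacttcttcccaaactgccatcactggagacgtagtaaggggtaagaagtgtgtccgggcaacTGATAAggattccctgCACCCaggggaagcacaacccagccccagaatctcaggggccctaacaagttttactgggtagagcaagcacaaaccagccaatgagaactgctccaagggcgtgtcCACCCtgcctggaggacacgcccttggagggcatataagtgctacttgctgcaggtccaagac
Hbb-bs: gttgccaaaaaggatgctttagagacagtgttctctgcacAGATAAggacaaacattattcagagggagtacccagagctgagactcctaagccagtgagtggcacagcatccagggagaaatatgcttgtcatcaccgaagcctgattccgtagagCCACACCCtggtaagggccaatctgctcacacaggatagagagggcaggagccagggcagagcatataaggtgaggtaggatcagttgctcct
Alas2: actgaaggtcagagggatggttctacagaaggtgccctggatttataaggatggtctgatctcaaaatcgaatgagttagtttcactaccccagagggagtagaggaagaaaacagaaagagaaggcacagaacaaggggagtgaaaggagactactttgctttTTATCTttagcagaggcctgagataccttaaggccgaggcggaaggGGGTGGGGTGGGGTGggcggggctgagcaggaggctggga
Klf1: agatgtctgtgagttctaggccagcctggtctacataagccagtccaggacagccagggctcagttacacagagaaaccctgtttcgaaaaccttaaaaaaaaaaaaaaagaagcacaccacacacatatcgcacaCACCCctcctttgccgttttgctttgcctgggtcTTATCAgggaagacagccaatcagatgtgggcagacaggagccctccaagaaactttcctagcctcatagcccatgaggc
The first base of the GATA match lay 186 bases before the start in Hba-a2, 210 in Hbb-bs, 86 in Alas2 and 80 in Klf1. No AGATAA or TGATAA was found in the windows of Hbb-bt and Gata1, and no CACCC in that of Epb42. A match is a description of the letters only. The genes were chosen as red cell genes, and their sequence does not depend on these libraries. The matches therefore bear on no difference between the groups.

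Ratios within a library, which do not depend on the scaling between libraries, were compared next. The log2 ratio of alpha to beta globin was 0.00, 0.28, 0.21 and 0.03 in the controls, in the order of replicates 1 to 4, and 0.75, 0.31, 0.29 and 0.35 in the libraries labelled knockout. The groups did not overlap, but knockout replicate 3 exceeded control replicate 2 only narrowly. The means were 0.13 ± 0.14 and 0.42 ± 0.22 (SD, n = 4), a difference of 0.29, with the smallest p the exact permutation test can give, 0.0286, and 0.114 after adjustment over the 4 ratios tested. With any library but control replicate 2 or 3 left out, the exact permutation p of this ratio rose to between 0.0571 and 0.0857.

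The other ratios did not separate the groups. Hba-a1 made up 87.3 ± 1.69% of alpha globin in the controls and 89.8 ± 6.68% in the libraries labelled knockout (exact permutation p = 0.514). The controls lay between 85.2% and 88.9%, whereas the other group ran from 82.0% in replicate 1 (95% Wilson interval 80.8 to 83.2%) to 97.6% in replicate 4 (96.9 to 98.1%), each interval covering counting error only. Hbb-bt made up 16.9 ± 1.38% and 15.6 ± 2.65% of beta globin (exact permutation p = 0.429). The log2 ratio of Alas2 to beta globin was -4.60 ± 0.19 and -4.63 ± 0.21 (exact permutation p = 0.886), a difference of -0.03, although Alas2 varied 24.8-fold and Hbb-bs 25.7-fold over the libraries.

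**Figure D3:**
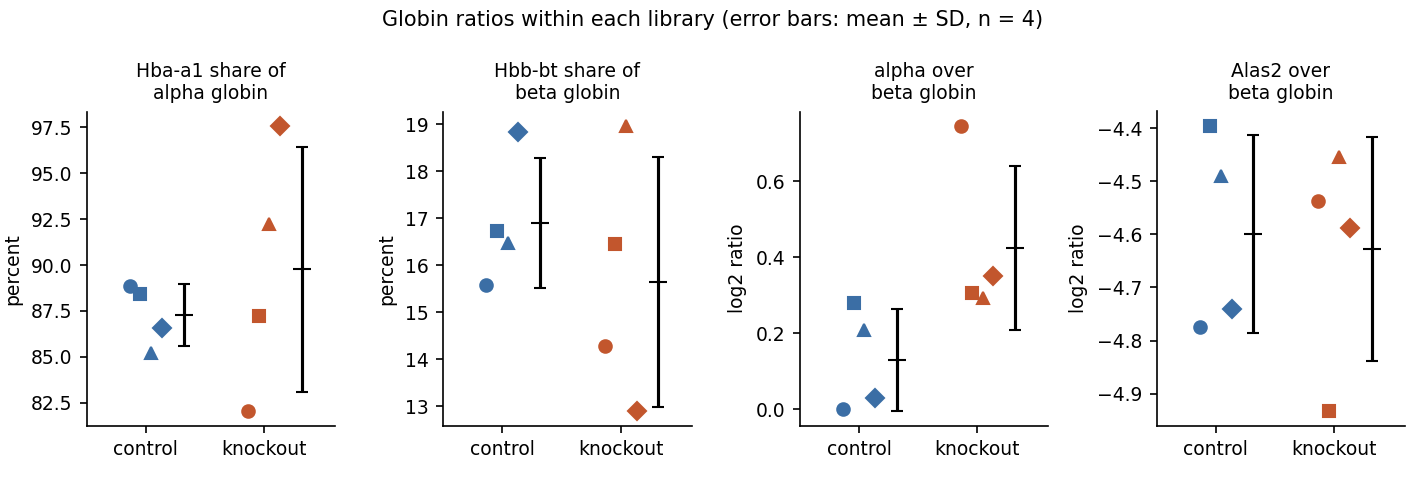
From left to right, the share of Hba-a1 in alpha globin and of Hbb-bt in beta globin (percent) and the log2 ratios of alpha globin and of Alas2 to beta globin, with controls in blue, libraries labelled knockout in orange, circle, square, triangle and diamond for replicates 1 to 4, and mean ± SD in black (n = 4). The third panel shows groups that do not overlap, and the first shows knockout replicate 4 at 97.6%, above all other libraries.

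Lists of other genes of the red cell programme were read from the same fit. Of 58 tested genes on 7 lists, 13 were called lower and 0 higher (11.6% of all tested genes in either case), and the median log2 difference was -0.53. The count called lower was 25 without knockout replicate 3 and 22 without control replicate 3, where 13.4% and 11.2% of all tested genes were. With any other single library left out it was 9 to 11, where 913 to 1408 of the 14949 tested genes were called lower. Scaling the libraries without the 50 genes of highest mean, the 9 genes, the pathway genes and the muscle and neutrophil lists gave 2 called higher. Over the table that scaling gave 786 genes lower and 2706 higher, in place of 1729 and 1732. Of the 7 haem synthesis enzymes, 3 fell. Fech, whose enzyme puts iron into the ring in the last step, fell from 2772 ± 215 to 1867 ± 247 (log2 difference -0.58, SE 0.11, limma adjusted p = 0.00828), Cpox from 658 ± 84.4 to 442 ± 47.7 and Urod from 838 ± 59.0 to 657 ± 76.2. Of the 10 genes of iron uptake and haem transport, only Abcb10, of a mitochondrial transporter, fell (log2 difference -0.49, limma adjusted p = 0.0161).

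Of 14 tested genes of the red cell membrane and its skeleton, 14 had a negative difference and 5 fell, against 49.9% and 11.6% of all tested genes. Ank1, the gene of the ankyrin that ties the skeleton to band 3, fell from 6225 ± 976 to 3193 ± 568 (log2 difference -0.97, SE 0.15, limma adjusted p = 0.00496). Tmod1 (-0.76), Epb41 (-0.75), Sptb (-0.78) and Tspan33 (-1.37) were the others. Of 9 tested transcription partners, Sox6 fell (-0.67), of 7 tested genes of erythropoietin signalling, Stat5b fell (-0.42), and of 10 tested genes of terminal maturation, Bpgm (-0.77), which encodes the enzyme of 2,3-bisphosphoglycerate, and Ube2o (-0.63) fell. Counts of 1 in lists of 7 to 10 genes lie near the 11.6% called lower over all tested genes. Epor, the erythropoietin receptor gene, had a difference of -0.90 (limma adjusted p = 0.263) and Tfrc, the transferrin receptor gene, one of -0.09 (limma adjusted p = 0.688). Of the embryonic and minor globins only Hbq1b was tested, at means of 14.1 ± 10.6 and 6.06 ± 8.22 (limma adjusted p = 0.268).

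The spread of the pathway genes over the libraries is given as a description. Taking the highest over the lowest library (after adding 1 to each value), the 9 haemoglobin and erythroid genes spanned 16.0-fold to 120-fold, and the 13 genes called lower 1.51-fold to 5.83-fold. Among the 58 pathway genes, 10 spanned at least as much as the narrowest of the 9, and these were chosen after their values were seen. Kel, Gfi1b, Tspo2, Trim10, Hbq1b, Rhag, Car1 and Hemgn were among them, and their differences ranged around a median of -1.79 with 0 called. This span includes both the group difference and the spread that enters the test, so nothing is read from the calls on either side of it.

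Several of the genes that fell are also used by skeletal muscle, among them Ank1, Sptb, Tmod1 and Sox6, and muscle genes differed between the groups. All 12 skeletal muscle genes had negative differences (median -0.74), against 49.9% of all tested genes, and 5 were called lower, against 11.6%. Their summed value ran from 2354500 to 2535800 in the controls and from 1154300 to 1628300 in the libraries labelled knockout. Pygm (-0.91), Casq1 (-0.79) and Actn3 (-0.97) had the smallest p-values of that list. The part of muscle in the falls of the pathway genes was not tested.

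**Figure D4:**
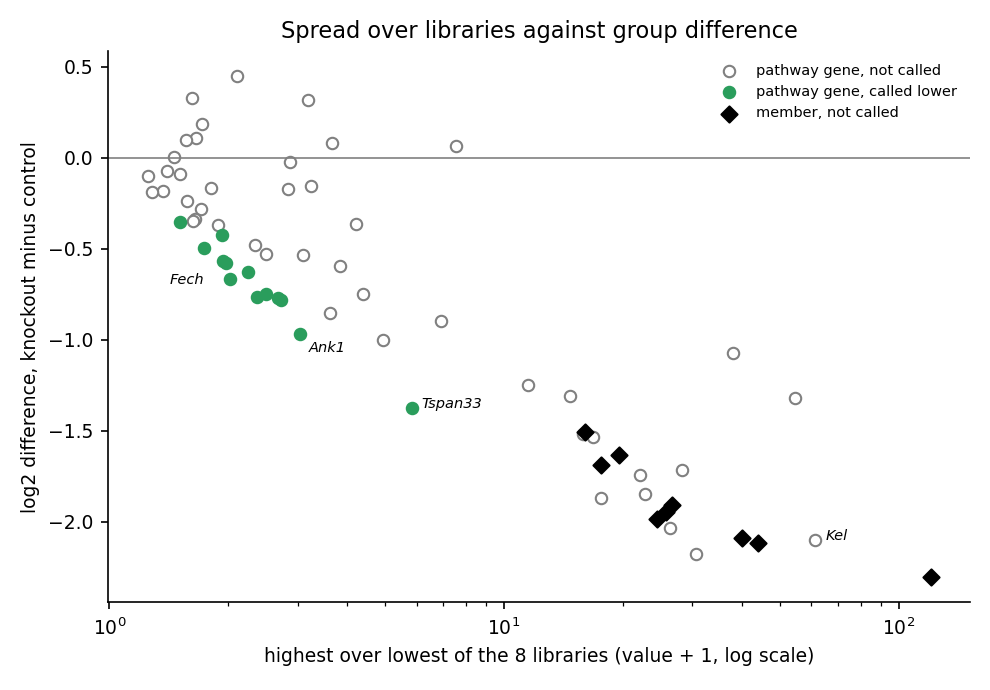
Each point is a gene, with the highest over the lowest of the 8 libraries on the x axis (log scale) and the log2 difference (knockout minus control) on the y axis, as black diamonds for the 9 haemoglobin and erythroid genes, green for pathway genes called lower and open circles for pathway genes not called. The 13 green points lie at spans of 1.51-fold to 5.83-fold, and the 9 diamonds at 16.0-fold to 120-fold.

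The genes whose values followed the mean of the 9 most closely over the 8 libraries, after subtracting group means, included Trim54 (Pearson r = 0.986), Kel (0.982), Tent5c (0.982), Stk11 (0.977), Ermap (0.976), Nfe2 (0.972) and Sgca (0.972), out of 11637 genes with a mean of at least 50. The 8 closest genes were taken as a description with no test, and by Spearman correlation 4 of the 8 stayed among the closest 8. Kel, Ermap and Nfe2 stood on the erythroid lists. Trim54, a gene of the muscle sarcomere, and Sgca, of the sarcoglycan complex of muscle, had narrow spreads instead, at 4174 ± 411 and 2432 ± 358 for Trim54 (limma adjusted p = 0.00456).

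Other cells of marrow and blood followed the same order of libraries only in part. Of 12 neutrophil genes, 12 had negative differences (median -0.62), against 49.9% of all tested genes, and 0 were called, against 23.2%. Their summed value ran from 1576 to 6254 in the controls and from 1187 to 2872 in the libraries labelled knockout, highest in control replicate 1. Of 8 tested megakaryocyte and platelet genes, 0 were called (median -1.001), with summed values of 443 to 1026 and 376 to 777. Their mean log2 value was 6.261, 5.427, 4.976 and 6.264 in control replicates 1 to 4. In the libraries labelled knockout it was 4.693, 5.547, 4.789 and 3.887. The controls thus ran in the order seen for Gata1, while knockout replicate 2 was the highest of its group. Of 4 tested B cell genes, 0 were called (median -1.04). Knockout replicate 4 had the lowest mean log2 value of all 8 libraries for the neutrophil, megakaryocyte and B cell lists as well as for the 9 genes. By contrast, knockout replicate 3, which stood among the controls for the 9 genes, was below all 4 controls in that mean for the megakaryocyte and B cell lists. The part of these cells in the erythroid values was not tested.

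Mast cells and eosinophils can also express Gata1. Of 4 tested mast cell genes, Mcpt4 rose (log2 difference 1.72, limma adjusted p = 0.0293) and the other 3 were not called. Over all tested genes, 11.6% were called higher and 11.6% lower. The 1 tested eosinophil gene, Prg2, differed by 0.03 (limma adjusted p = 0.970). The part of these cells in the Gata1 values was not tested. For macrophages that nurse red cell precursors or take up old red cells, 2 of 7 tested genes were called higher and 1 lower. These counts stand against the same 11.6% in each direction. Siglec1 (1.602) and Vcam1 (1.11) rose and Slc40a1, the iron exporter ferroportin, fell (-0.76, limma adjusted p = 0.0128). Spic, Hmox1, Cd163 and Dnase2a were not called. Of 7 cell division genes 0 were called, and their median difference was -0.03. Mki67, a gene of dividing cells in general, stood at 441, 440, 161 and 663 in the controls and at 302, 321, 388 and 181 in the libraries labelled knockout (log2 difference -0.40, adjusted p = 0.487 by limma). Control replicate 4 was the highest and control replicate 3 the lowest for Mki67. For this gene the libraries labelled knockout ran in the same order as for the haemoglobin genes, though over a narrower range. Rrm2 and Ccna2 shared that order in the libraries labelled knockout, whereas Top2a, Tyms, Cdk1 and Mcm5 did not. Top2a (0.35), Tyms (0.12) and Cdk1 (0.49) had positive log2 differences, and Mki67, Rrm2, Ccna2 and Mcm5 negative ones. The part of dividing cells in the erythroid values was not tested.

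**Figure D5:**
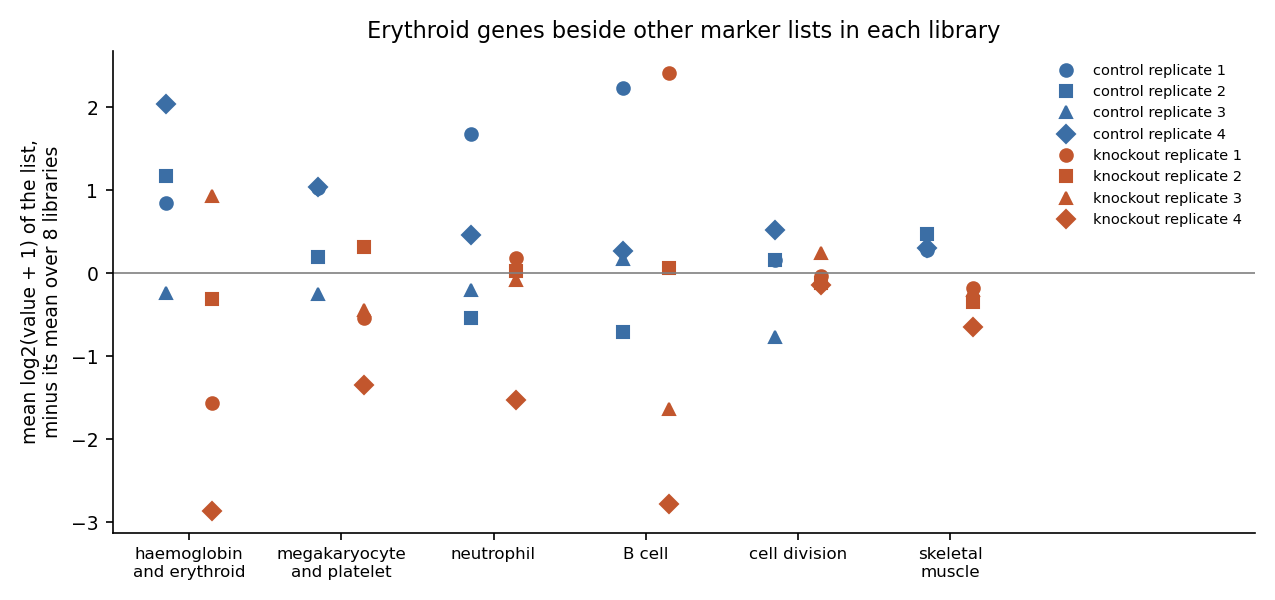
Mean log2(value + 1) of the tested genes of each list in each library, minus the mean over the 8 libraries, with controls in blue, libraries labelled knockout in orange and symbols for the replicate number. Knockout replicate 4 is lowest for each of the first 4 lists and for muscle, and the muscle list alone of the 6 has groups that do not overlap.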

How the data were processed

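Knee joints were profiled by poly-A RNA sequencing in 8 libraries, grouped by their titles. The deposited values are a normalised signal, reads per gene divided by a size factor of the library. Per the labels and the submitters' processing notes, reads were aligned to mm10 with HISAT2, counted with featureCounts and analysed, with normalisation and filtering, with DESeq2. Versions, annotation, strand setting and the rule for reads that match several genes are not given in the sources used here. In each column 100% of values lay within 0.02 of a whole multiple of 1 step per library, and these whole reads gave the depths (the step lay close to 1 for replicate 2 of the controls and replicate 1 of the knockouts). Value columns mapped to no sample numbered 0.

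Values were analysed as log2(value + 1) with limma 3.58.1 (R 4.3.3), with a group term, eBayes with an intensity trend, and Benjamini-Hochberg adjustment over all 14949 genes tested. Exact two-sided permutation tests used the 70 assignments of libraries. edgeR 4.0.16 and DESeq2 1.42.0 were run on the whole reads as alternatives, beside other pseudocounts, TMM, quantile and reduced-gene scaling, no filter, a replicate block and leaving out each library. Tests were checked on simulated data.

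Coordinates, exon lengths and globin transcripts are from GENCODE M21 on mm10 and promoters from RefSeq on GRCm38.p6. The genes and lists were chosen with earlier results of these data known. Named genes are the 9 genes, Loxl2, from each list up to 3 called genes of smallest p or else the gene of highest mean, and the 8 genes most like the 9. Some genes that meet this rule are not reported here. Sptb, Tspan33, Epor, Tfrc and the wide-ranging pathway genes were named after their values were seen. Eosinophil, cartilage, osteoblast and marrow stroma lists were read for cell types. Their called genes were 0 of 1, 0 of 6, 3 of 4 (higher, Col1a1, Ibsp and Sp7) and 0 of 4 tested. Over all tested genes, 23.2% were called in either direction.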

Additional observations from a re-analysis of the deposited data

Results flagged for a closer look

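In 30 sets of 4 libraries, a library stood apart from its group by Dixon's test at its 95% critical value in 2, where chance gives about 1 in 20. The log2 ratio of alpha to beta globin was 0.75 in knockout replicate 1, against 0.29 to 0.35 in the other libraries labelled knockout. Loxl2 was at 1135 normalised reads in control replicate 3, against 282 to 349 in the other controls, and the same library was the lowest control for all 9 haemoglobin and erythroid genes.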

How the results depend on the processing

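The log2 differences of all 9 haemoglobin and erythroid genes stayed negative under the 17 alternatives run. The count of the 9 called lower was 0 and rose to 2 with DESeq2 (Epb42 at -1.431 and Gata1 at -1.764, where 13.3% of all tested genes were called lower). It ran from 0 to 8 when 1 library was left out, where 913 to 2001 of the 14949 tested genes were called lower. Over those omissions the difference ran from -2.271 to -1.179 for Hba-a1, -2.905 to -1.232 for Hba-a2, -2.591 to -1.488 for Hbb-bs, -2.85 to -1.528 for Hbb-bt, -2.707 to -1.531 for Alas2, -2.568 to -1.221 for Slc4a1, -2.178 to -1.101 for Epb42, -2.111 to -0.8413 for Klf1 and -2.632 to -1.333 for Gata1. The first of each pair came without knockout replicate 3 and the second without knockout replicate 4. The cause was not tested.

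Pathway genes called lower ran from 9 to 25 with 1 library left out (25 without knockout replicate 3, 22 without control replicate 3). Over the same omissions, 913 to 2001 of the 14949 tested genes were called lower. Pathway genes called higher numbered 0, 1 with quantile normalisation, 2 with the reduced-gene scaling, 1 with DESeq2 and 0 to 1 with 1 library left out. The reduced-gene scaling left out the 50 genes of highest mean, the 9 genes, the pathway genes and the muscle and neutrophil lists. It put the median of all genes at 0.147 and gave 786 genes lower and 2706 higher, in place of 1729 and 1732. Genes called across the table numbered 3461, and 1751 to 3841 with 1 library left out.

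The difference in the Hba-a1 share ran from -0.1331 without knockout replicate 4 to 5.053 percentage points. That in the log2 ratio of alpha to beta globin ran from 0.1869 to 0.3437. That in the ratio of Alas2 to beta globin ran from -0.08656 to 0.07302, turned positive without control replicate 2 (0.03932), control replicate 3 (0.008098) or knockout replicate 2 (0.07302), and was 0.046 with 10 added to each value. By Spearman correlation 4 of the 8 most similar genes were shared.

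Equal replicate numbers did not pair the libraries of replicates 2 to 4, with correlations of their deviations of 0.213, -0.118, -0.233 and -0.063 for replicates 1 to 4. The highest correlation of each control with a library labelled knockout of another number was 0.028, 0.275, 0.209 and 0.15. Only for replicate 1 was the equal number the closest. With the replicate number as a block, 2018 genes and 8 pathway genes were called, 0 of the 9 genes were, and the alpha to beta difference of 0.2941 had an exact p of 0.125, the smallest the 4 pairs allow. Standard errors of the 9 genes did not follow their read numbers (0.64 for Epb42 with 7 reads in its lowest library, 0.70 for Hba-a1 with 2424), and the spread between libraries was wide in all 9. Counting error is largest for Gata1, with 3 reads in its lowest library.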
